A study of Mus musculus with 14 samples.

Results

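The cathepsin family comprises the genes of the main intracellular proteases of endosomes and lysosomes, and 10 of its members were followed in mouse dendritic cells: Ctsb, Ctsl, Ctss, Ctsd, Ctsz, Ctsh, Ctsc, Ctsk, Ctse and Ctsa. Each gene was represented by its single-gene probe set with the highest mean over 14 arrays, and the measured response played no part in that choice of probe set. The genes themselves were listed with earlier results of these data known. They are 10 of the 18193 genes that a single-gene probe set measured, and 10 of the 12172 bright enough to test. All 10 exceeded the overall median of 7.52 log2 on all 14 arrays.

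Dendritic cells were grown from BALB/c bone marrow in recombinant GM-CSF over 8 days, so every group shared strain and growth factor. For 1 h they were kept in the solvent DMSO (0.01%), in 5 µM CLIK148, a cathepsin L inhibitor, or in 5 µM CA074Me, a cathepsin B inhibitor. They then received nothing (3 groups), CpG oligonucleotide at 25 µg/mL, a ligand of Toll-like receptor 9, or tumour necrosis factor alpha (TNF) at 500 U/mL. CpG followed solvent or CLIK148 and TNF followed solvent or CA074Me, which gave 7 groups of 2 arrays, 1 array from each of 2 independent experiments. How long after the stimulus RNA was taken is not stated in the labels. Such cultures are mixed, and the arrays carried markers of several cell types: 8 of 8 dendritic, 7 of 7 macrophage and 7 of 7 granulocyte markers lay above the overall median on every array, against 1 of 6 lymphocyte and 0 of 4 erythroid and stromal markers. Array medians lay between 7.48 and 7.54 log2 and the profiles of a group's replicates correlated at r from 0.961 to 0.985. In RNA from whole cultures, fewer cells of a type and less RNA per cell cannot be told apart.

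Most cathepsins are cysteine proteases, while cathepsins D and E are aspartic proteases and cathepsin A is a serine carboxypeptidase. They are made as inactive precursors, carried to lysosomes by mannose 6-phosphate receptors and activated at acid pH. In antigen-presenting cells they degrade endocytosed protein, cathepsin S removes the invariant chain from MHC class II, and several cathepsins can cleave the ectodomain of Toll-like receptor 9. The inhibitors act on the enzymes, whereas the arrays measured the transcripts.

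Promoter windows of 250 bases before to 50 after the transcription start (RefSeq, GRCm38.p6) were held for 7 of the 10 genes, and those of 4 genes with a single window that carries a motif of factors of lysosomal or myeloid genes are shown. Capitals mark CACGTG, the core of the E-box bound by the TFEB and MITF family, or GAGGAAGT, an ETS-type site of the kind PU.1 binds, printed as ACTTCCTC where it lies on the other strand. Both strands were searched. CACGTG occurred in 7.15% and GAGGAAGT in 3.20% of 32851 promoter windows of the same length. The Ctsl window lies at chr13:64370471-64370770, minus strand, with the E-box starting 236 bases before the start. The Ctsd window lies at chr7:142387778-142388077, minus strand, with E-boxes starting 245 and 98 bases before the start. The Ctss window lies at chr3:95526536-95526835 and the Ctsc window at chr7:88277835-88278134, both on the plus strand, with the ETS-type match starting 2 and 151 bases before the start.
Ctsl: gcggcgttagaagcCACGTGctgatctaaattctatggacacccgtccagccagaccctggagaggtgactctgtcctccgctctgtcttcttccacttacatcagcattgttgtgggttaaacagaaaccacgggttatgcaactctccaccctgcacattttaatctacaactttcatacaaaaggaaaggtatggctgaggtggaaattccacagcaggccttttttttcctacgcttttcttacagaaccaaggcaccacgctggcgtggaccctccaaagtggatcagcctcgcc
Ctsd: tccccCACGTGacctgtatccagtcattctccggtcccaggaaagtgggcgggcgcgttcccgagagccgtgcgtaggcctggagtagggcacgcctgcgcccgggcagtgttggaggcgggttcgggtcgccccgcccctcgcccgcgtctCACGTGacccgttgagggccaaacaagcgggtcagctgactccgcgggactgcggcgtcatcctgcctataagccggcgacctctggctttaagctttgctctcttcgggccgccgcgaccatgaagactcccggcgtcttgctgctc
Ctss: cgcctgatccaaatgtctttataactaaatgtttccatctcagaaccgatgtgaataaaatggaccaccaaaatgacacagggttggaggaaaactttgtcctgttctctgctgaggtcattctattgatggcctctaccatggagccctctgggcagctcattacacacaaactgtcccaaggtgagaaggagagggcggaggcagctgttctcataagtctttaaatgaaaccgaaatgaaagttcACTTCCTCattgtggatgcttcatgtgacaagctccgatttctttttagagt
Ctsc: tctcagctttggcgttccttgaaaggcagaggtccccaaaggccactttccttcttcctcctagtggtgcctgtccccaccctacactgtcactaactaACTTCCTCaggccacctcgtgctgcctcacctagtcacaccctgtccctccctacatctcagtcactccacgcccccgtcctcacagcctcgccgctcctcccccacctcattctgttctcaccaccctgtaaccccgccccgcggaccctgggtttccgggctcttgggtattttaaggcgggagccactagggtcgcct
Ctsa had a pair of windows and is not shown, 1 with 2 CACGTG matches and 1 with neither motif, and the windows of Ctsz and Ctsk held neither. A match is a run of letters and no measured binding. Between the experiments, as given further on, Ctsl was higher and Ctsd lower in the second, both with the E-box, and Ctsa did not pass. Ctss and Ctsc, with the ETS-type letters, were lower, and so were Ctsz and Ctsk with neither motif.

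For 7 of the 10 genes (all but Ctsd, Ctsh and Ctsa) the mean gap between the experiments was wider than the range of the 7 group means. With CpG in solvent the median absolute difference of the members was 0.08 log2, against 0.16 for all genes. With TNF in solvent it was 0.16, against 0.11 for all genes, and neither gap was tested. The range between the highest and the lowest group mean had a median of 0.25 log2 over the 10 genes, from 0.09 for Ctss to 0.47 for Ctse. When the groups were ranked by mean, 1 of 60 neighbouring pairs differed beyond its spread: Ctse after CLIK148 alone (11.41) stood over Ctse with solvent and CpG (11.08), by 0.33 log2 (95% confidence interval 0.07 to 0.59). The intervals are unadjusted and the pairs were formed by ranking the same values, so this 1 pair is a description. A rank of the groups is therefore not resolved for any of the 10 genes, beyond what the tests below show.

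**Figure D1:**
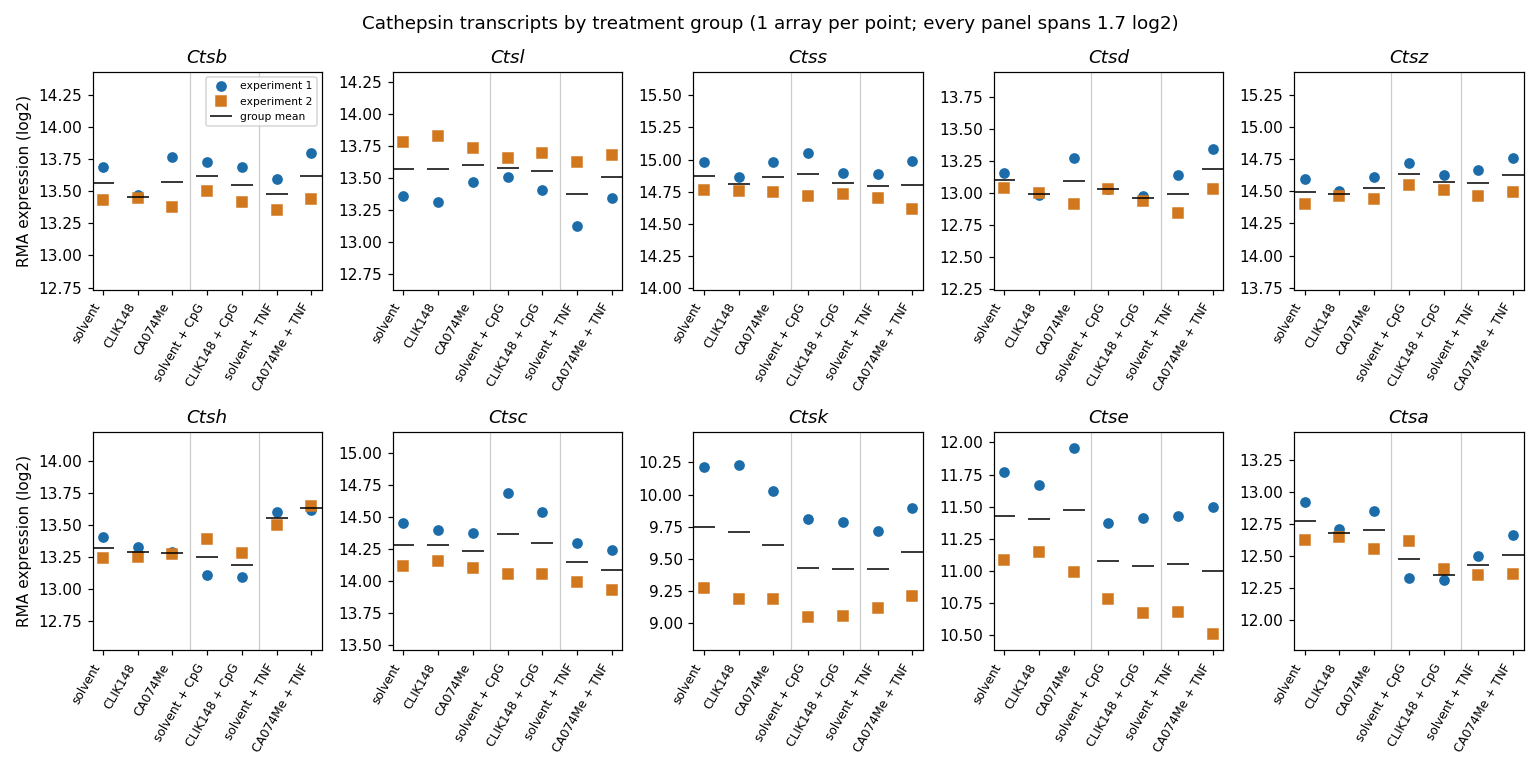
RMA expression (log2) of each cathepsin gene on each of 14 arrays, by treatment group. Circles are experiment 1, squares experiment 2 and bars group means, and every panel spans the same 1.7 log2. Ctsk and Ctse separate by experiment in every group, with the widest gaps of the 10 genes. The group means of Ctsb, Ctss and Ctsz lie nearly level, with the array of experiment 2 the lower in every group.

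Among the cysteine proteases, Ctsb encodes cathepsin B, the enzyme CA074Me is aimed at. On the arrays of experiments 1 and 2 it stood at 13.69 and 13.43 log2 in solvent, 13.47 and 13.44 after CLIK148, and 13.76 and 13.38 after CA074Me. With CpG it stood at 13.73 and 13.51, with CLIK148 and CpG at 13.69 and 13.41, with TNF at 13.60 and 13.36, and with CA074Me and TNF at 13.80 and 13.44. The groups overlapped, and in each of them the array of experiment 2 was the lower.

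Ctsl encodes cathepsin L, the enzyme CLIK148 is aimed at. Its values in experiments 1 and 2 were 13.36 and 13.78 log2 in solvent, 13.31 and 13.82 after CLIK148 and 13.47 and 13.73 after CA074Me. They were 13.51 and 13.66 with CpG, 13.41 and 13.70 with CLIK148 and CpG, 13.13 and 13.63 with TNF, and 13.35 and 13.68 with CA074Me and TNF. The order of the experiments was the reverse of that of Ctsb, since every array of experiment 2 exceeded every array of experiment 1.

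Ctss, Ctsz and Ctsc were bright, between 13.93 and 15.05 log2 on every array, where array maxima were 15.2 to 15.6. Ctss encodes the invariant chain protease cathepsin S and ranged from 14.87 to 15.05 in experiment 1 and from 14.61 to 14.76 in experiment 2. Ctsz, the carboxypeptidase cathepsin Z (also called X), ranged from 14.50 to 14.76 and from 14.40 to 14.55. Ctsc encodes the dipeptidyl peptidase that activates granule serine proteases of leukocytes, and ranged from 14.25 to 14.69 in experiment 1 and from 13.93 to 14.16 in experiment 2. For Ctss and Ctsc the experiments did not overlap.

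Ctsh encodes cathepsin H, mainly an aminopeptidase, and was the member whose highest arrays were those with TNF. It stood at 13.41 and 13.24 log2 in solvent, 13.33 and 13.25 after CLIK148, and 13.29 and 13.27 after CA074Me. It was 13.60 and 13.50 with TNF and 13.62 and 13.65 with CA074Me and TNF, against 13.11 and 13.39 with CpG and 13.10 and 13.28 with CLIK148 and CpG. The 4 TNF arrays lay above all other 10 arrays.

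Ctsk encodes cathepsin K, the collagen-degrading protease best known from osteoclasts. It stood at 10.22 and 9.27 log2 in solvent, 10.23 and 9.18 after CLIK148, and 10.03 and 9.19 after CA074Me. It was 9.81 and 9.04 with CpG, 9.79 and 9.06 with CLIK148 and CpG, 9.72 and 9.12 with TNF, and 9.90 and 9.21 with CA074Me and TNF. In experiment 1 all 4 stimulated arrays lay below all 3 unstimulated ones, and in experiment 2 they overlapped.

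Of the aspartic proteases, Ctsd encodes the general lysosomal endopeptidase cathepsin D and varied between 12.98 and 13.34 log2 in experiment 1 and between 12.84 and 13.04 in experiment 2. Ctse encodes cathepsin E, an endosomal aspartic protease of immune and epithelial cells, and stood at 11.77 and 11.09 in solvent, 11.67 and 11.15 after CLIK148, and 11.96 and 10.99 after CA074Me. It was 11.37 and 10.78 with CpG, 11.42 and 10.67 with CLIK148 and CpG, 11.43 and 10.68 with TNF, and 11.50 and 10.51 with CA074Me and TNF. Within either experiment, all 4 stimulated arrays lay below all 3 unstimulated arrays.

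Ctsa encodes the serine carboxypeptidase cathepsin A, which also protects beta-galactosidase and neuraminidase in lysosomes. It stood at 12.92 and 12.63 log2 in solvent, 12.71 and 12.65 after CLIK148 and 12.85 and 12.55 after CA074Me. It was 12.33 and 12.62 with CpG, 12.31 and 12.40 with CLIK148 and CpG, 12.50 and 12.35 with TNF and 12.66 and 12.36 with CA074Me and TNF. The stimulated arrays lay below the unstimulated ones in experiment 1 and overlapped them in experiment 2.

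Stimulus effects were tested with limma on all 14 arrays, with treatment group and experiment in the model and p values adjusted over 12172 genes. With CpG in solvent, 0 of the 10 members passed an adjusted p of 0.05, while 19.9% of all genes did. At an unadjusted p under 0.05 there were 2 members and 4547 genes. The nearest were Ctsk, at -0.32 ± 0.10 log2 (standard error; limma adjusted p = 0.0551), and Ctse, at -0.35 ± 0.11 (0.0595), both below solvent in each experiment. Ctsa lay 0.59 log2 below solvent in experiment 1 and 0.01 below it in experiment 2 (mean -0.30 ± 0.14, limma adjusted p = 0.158). Without the solvent plus CpG array of experiment 2, Ctse (-0.44, adjusted p = 0.0349) and Ctsa (-0.53, 0.0143) passed. The remaining 7 members lay between -0.07 and 0.14 log2. Ctsh differed by -0.29 and 0.15 and Ctsc by 0.24 and -0.06 in experiments 1 and 2, so their means near 0 combine opposite signs. Ctsl and Ctss also changed sign between experiments. Markers of cell types moved with CpG as well. Of 7 macrophage markers 3 fell, Csf1r by 0.40, C1qa by 1.51 and Mrc1 by 0.89 log2, while 3 lay above 0 without passing. Of 5 osteoclast markers tested 1 passed, Dcstamp, which fell by 0.40. Of 8 dendritic markers Ccr7 rose by 1.17 and Clec10a fell by 1.60, and 0 of 7 granulocyte markers passed. Their part in the cathepsin values was not tested.

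With TNF in solvent, 0 of 10 members passed in limma, against 3.11% of all genes, and 3 members and 2499 genes had an unadjusted p under 0.05. Ctse, Ctsk and Ctsa lay 0.37 ± 0.11, 0.33 ± 0.10 and 0.35 ± 0.14 log2 below solvent (limma adjusted p = 0.114, 0.119 and 0.212), each in both experiments. With array weights in the model these 3 passed. Ctsh lay 0.23 ± 0.10 log2 above solvent (adjusted p = 0.257). The dendritic marker Clec10a fell by 1.26 log2 with TNF, while 0 of 7 macrophage and 0 of 7 granulocyte markers passed. Both comparisons subtract the same solvent arrays, so the values of the 2 stimuli are not independent of each other.

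After an inhibitor, the responses came from other arrays. With CpG after CLIK148, 0 of 10 members passed in limma against 17.1% of all genes, and 3 members and 4391 genes had an unadjusted p under 0.05. Ctse lay at -0.36 ± 0.11 log2 (limma adjusted p = 0.0567), Ctsk at -0.28 ± 0.10 (0.0808) and Ctsa at -0.33 ± 0.14 (0.130). With TNF after CA074Me, 11.1% of all genes passed, with 6.16% of all genes lower, and 1 member did. Ctse fell by 0.47 ± 0.11 log2 (95% interval -0.73 to -0.21, limma adjusted p = 0.0331), or 1.39-fold lower, with -0.46 and -0.48 in experiments 1 and 2. That call was lost without the CA074Me array of experiment 1 (-0.34, adjusted p = 0.278) and without the CA074Me plus TNF array of experiment 2 (-0.33, 0.261). It was also lost with the mean of the gene's probe sets (-0.32, adjusted p = 0.137) and without the experiment as a block (0.790). In the same comparison the macrophage marker Mrc1 fell by 0.90 log2 (limma adjusted p = 0.0447), and of the dendritic markers Clec10a fell by 1.29 (0.00954) and Flt3 rose by 0.55 (0.00866), while 0 of 7 granulocyte markers passed. Their part in the Ctse value was not tested. Ctsh lay 0.35 ± 0.10 log2 above CA074Me alone (adjusted p = 0.0621), by 0.33 and 0.38. Ctsk lay at -0.06 ± 0.10, against -0.33 with TNF in solvent, and the difference between those responses is given with the interactions.

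**Figure D2:**
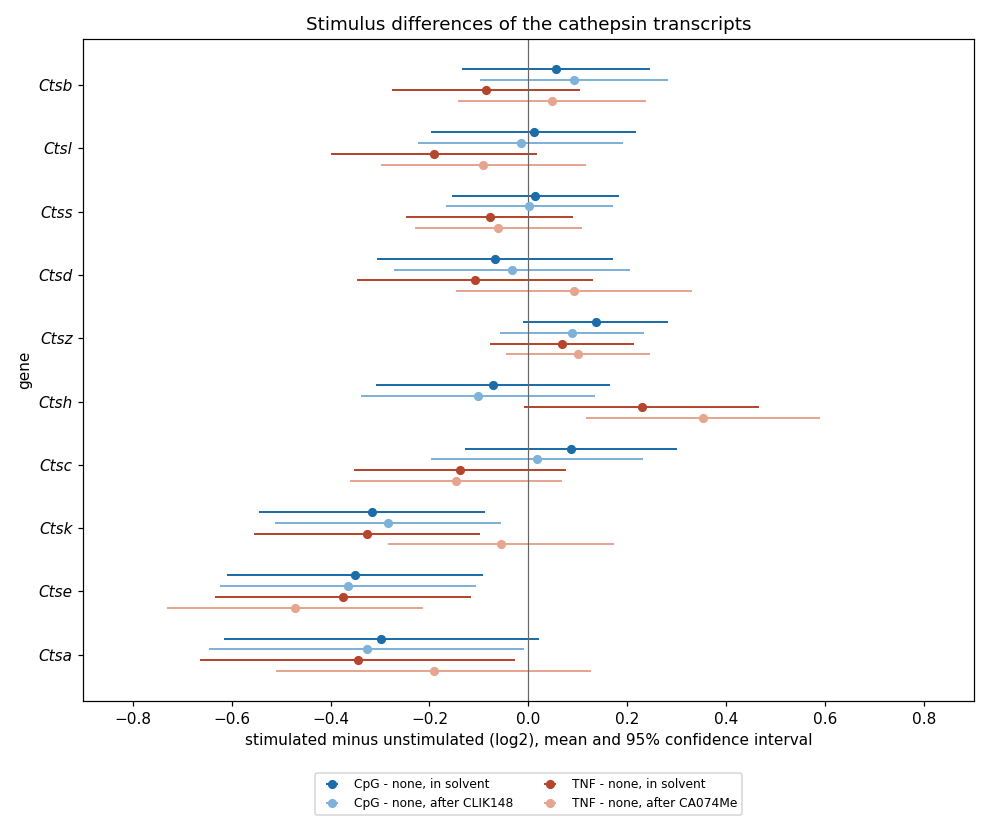
Stimulated minus unstimulated log2 expression of each cathepsin gene, with 95% confidence intervals from limma, for CpG and TNF in solvent and after an inhibitor. Points left of 0 are lower with the stimulus. Ctse lies left of 0 with its whole interval in all 4 comparisons, the Ctsh points lie right of 0 with TNF and left of it with CpG, and the intervals of Ctsb, Ctss and Ctsd span 0 throughout.

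With all stimulated groups (8 arrays) set against all unstimulated ones (6 arrays), a contrast chosen after the values were seen, 4 of 10 members passed against 44.1% of all genes, so the share of members is near the background. Of the 4, 3 fell and 1 rose, against 30.6% and 13.5% of all genes. Ctse fell by 0.39 ± 0.06 log2 (limma adjusted p = 0.00126), by 0.37 in experiment 1 and 0.41 in experiment 2, or 1.31-fold. Ctsa fell by 0.28 ± 0.08 (adjusted p = 0.0169) and Ctsk by 0.23 ± 0.05 (0.00873). These 2 differed more in experiment 1 (-0.38 and -0.35) than in experiment 2 (-0.18 and -0.11), a gap that was not tested. Ctsz rose by 0.10 ± 0.03 (adjusted p = 0.0479), which did not hold without 12 of the 14 arrays in turn, nor without the filter on dim genes (0.0503), with cyclic loess (0.141) or with array weights (0.0734). Ctsa also lost its call without the experiment 1 array of solvent (adjusted p = 0.0612) or of CA074Me (0.0625) and with the mean of its probe sets (0.0609), and Ctsk with cyclic loess (0.0551). Without the experiment as a block 0 members passed (Ctsa adjusted p = 0.0524), and the count over all genes dropped from 5371 to 2167.

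CpG and TNF were compared directly in solvent. In limma 0 of 10 members and 0.435% of all genes passed, with 2 members and 1914 genes at an unadjusted p under 0.05. Ctsh lay 0.30 ± 0.10 log2 lower with CpG than with TNF (adjusted p = 0.232), and Ctsc 0.22 ± 0.09 higher (0.299). Without the solvent plus CpG array of experiment 2 both passed, at -0.45 for Ctsh (adjusted p = 0.0393) and 0.38 for Ctsc (0.0377).

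With both TNF groups set against both CpG groups, likewise chosen after the values were seen, 1 member passed, against 4.67% of all genes in either direction and 2.37% in the higher one. Ctsh was higher with TNF by 0.37 ± 0.07 log2 (95% interval 0.21 to 0.54, limma adjusted p = 0.0288), or 1.29-fold. The TNF arrays lay between 13.50 and 13.65 and the CpG arrays between 13.10 and 13.39, without overlap. The gap was 0.51 in experiment 1 and 0.24 in experiment 2, and a second Ctsh probe set (mean 12.59) followed the first at r = 0.963 over the arrays. The inhibitor differs between these groups as well, since CA074Me was given with TNF and CLIK148 with CpG. The call was lost without the block (adjusted p = 0.112), with array weights (0.0537) and without 6 of the 8 arrays in turn, the values then lying between 0.30 and 0.41. Ctsc had the opposite sign (-0.22 ± 0.07, adjusted p = 0.101), and passed without the solvent plus CpG array of experiment 2 (-0.29, 0.0113).

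With either inhibitor alone, the confidence interval of every member's difference from solvent included 0, which does not show absence of an effect. After CLIK148, 0 of 10 members and 0% of all genes passed in limma (0 members and 45 genes at an unadjusted p under 0.05). The members lay between -0.11 and -0.00 log2, all 10 below solvent, with a median of -0.03 against -0.01 for all genes. That shared sign depends on the scaling, since with reference-gene scaling Ctsl lay at 0.04 and Ctsb at -0.06. For Ctsd the groups did not overlap, with 12.98 and 13.00 after CLIK148 against 13.16 and 13.04 in solvent (-0.11, interval -0.35 to 0.13). Ctsl, the gene of the inhibitor's target, differed by -0.00 ± 0.09 log2 with an interval of -0.21 to 0.21, and by -0.05 and 0.04 in experiments 1 and 2. After CA074Me, 0 members and 0% of all genes passed (0 members and 335 genes unadjusted), with members between -0.14 and 0.05. Ctsb, the gene of its target, differed by 0.01 ± 0.08 (interval -0.18 to 0.20), by 0.07 and -0.05 in experiments 1 and 2. The widest interval end among the members was 0.41 log2, or 1.33-fold, after CLIK148, and 0.39, or 1.31-fold, after CA074Me, so differences under those sizes were not resolved for every member.

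CLIK148 and CA074Me were compared with each other at the same 5 µM and 1 h without a stimulus, the 1 pair of compounds the design allows at matched dose. In limma 0 members and 0% of all genes passed (0 members and 287 genes unadjusted). The largest difference was that of Ctsb, 0.11 log2 lower after CLIK148 (interval -0.30 to 0.08), which was -0.29 in experiment 1 and 0.07 in experiment 2. Ctsl differed by -0.03 (interval -0.24 to 0.17). The intervals of all 10 members reached at most 0.34 log2, or 1.27-fold, and do not show that the compounds act alike.

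Under a stimulus the picture was similar. CLIK148 against solvent under CpG gave 0 members and 0% of all genes in limma (0 members and 226 genes unadjusted). All 10 members lay at or below 0, down to -0.12 for Ctsa, with a median of -0.07 against -0.03 for all genes. CA074Me against solvent under TNF gave 0 members and 0.00822% of all genes, that is 1 gene (0 members and 370 genes unadjusted). Here 8 of 10 members lay above 0, led by Ctsd at 0.20 ± 0.11 log2 (0.21 and 0.19 in experiments 1 and 2, unadjusted p = 0.0968 in limma). Ctsb, Ctsk and Ctsl followed at 0.14, 0.13 and 0.13. The median of the members was 0.08 against 0.00 for all genes.

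**Figure D3:**
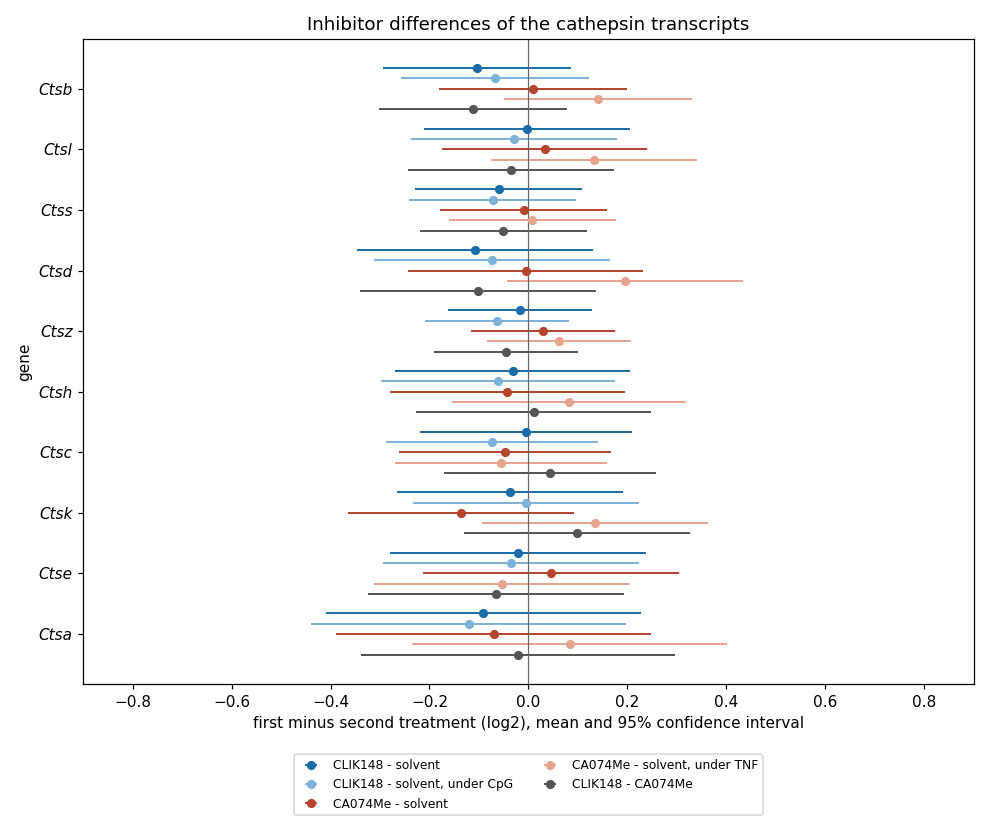
Differences in log2 expression between inhibitor and solvent, and between the 2 inhibitors, with 95% confidence intervals from limma. Every interval includes 0, and the CA074Me minus solvent values under TNF lie to the right of the other values for every gene but Ctsc and Ctse.

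Whether an inhibitor altered a stimulus response was tested as an interaction, and 0 members and 0% of all genes passed for CLIK148 with CpG (0 members and 61 genes at an unadjusted p under 0.05 in limma), and the same for CA074Me with TNF (0 members and 303 genes). The largest value was that of Ctsk for CA074Me with TNF, 0.27 ± 0.14 log2 (interval -0.05 to 0.59, 0.37 and 0.17 in experiments 1 and 2). For Ctse it was -0.10 ± 0.16, so its call with TNF after CA074Me and the lack of one in solvent are not shown to differ. For the genes of the inhibitors' targets, Ctsb gave 0.13 with CA074Me and TNF (interval -0.14 to 0.40, 0.13 in either experiment), and Ctsl -0.03 with CLIK148 and CpG (interval -0.32 to 0.27, -0.05 and -0.00).

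More members differed between the experiments than in any comparison of treatments. Over the 7 groups, 8 of 10 members differed between experiments 2 and 1, against 44.6% of all genes. Of these, 7 were lower in experiment 2, where 12.2% of all genes were lower, and 1 was higher, where 32.4% of all genes were. Lists of related genes, described further on, also held more lower than higher genes. Of 11 genes of activation, sorting and transcription 6 were lower and 2 higher. Of 9 endosomal partners 3 were lower and 1 higher, and of 13 other lysosomal genes 5 and 1. Of 5 endogenous inhibitors 1 was lower and 0 higher, while of 4 other cathepsin genes 0 were lower and 1 higher. Ctsk differed by -0.80 ± 0.05 log2 (limma adjusted p = 1.13e-05), or 1.74-fold, and Ctse by -0.75 ± 0.06 (2.85e-05), or 1.68-fold, each lower in 7 of 7 groups. Ctsc differed by -0.37 ± 0.05, Ctsb by -0.25 ± 0.04, Ctss by -0.23 ± 0.04 and Ctsz by -0.17 ± 0.03, again lower in 7 of 7 groups. Ctsd differed by -0.16 ± 0.06 (adjusted p = 0.0464) in 6 of 7 groups and did not pass when dim genes were tested too (0.0540). Ctsl was higher by 0.35 ± 0.05 (adjusted p = 0.000530) in 7 of 7 groups. Ctsh (0.02 ± 0.06) and Ctsa (-0.10 ± 0.08) did not pass, though Ctsa did with array weights (-0.18, 0.0233).

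Markers of other cells differed between the experiments too, in a comparison where 44.6% of all genes passed. The marker lists are short, and their shares are not shown to differ from that of all genes. Of 7 osteoclast markers on the array 5 were above the median on every array, Calcr and Ocstamp were below it on every array, and 3 passed. The fusion receptor gene Dcstamp stood at 11.62 and 10.92 log2 in experiments 1 and 2, the gelatinase gene Mmp9 at 10.84 and 10.08, and the proton pump subunit gene Atp6v0d2 at 10.54 and 9.58. Acp5 and Itgb3 did not pass. Dendritic cells and macrophages also express several of these genes, and Atp6v0d2 is on the list of lysosomal genes as well. The mean of the osteoclast list was 9.01 to 9.27 on the arrays of experiment 1 and 8.74 to 8.86 on those of experiment 2. The macrophage list had 11.54 to 12.13 and 11.21 to 11.67, and its widest difference was that of the mannose receptor gene Mrc1, at 10.97 and 8.56. The efferocytosis receptor gene Mertk (8.89 and 8.20) and Csf1r (14.52 and 14.29) were also lower, while Adgre1 was 0.36 log2 higher in experiment 2. Of those that did not pass, C1qa (11.19 and 11.55) and Cd14 (13.69 and 13.84) lay higher and Fcgr1 (11.48 and 10.94) lower. Of the granulocyte markers Mpo was 0.69 log2 higher in experiment 2, and Camp and S100a9 were 0.76 and 0.15 log2 lower. Of 3 lymphocyte markers tested Ms4a1 was 0.90 log2 higher in experiment 2. Cd3e (7.84 and 7.74 in experiments 1 and 2) and Nkg7 (7.47 and 7.40) lay lower without passing. Of 2 erythroid and stromal markers tested the endothelial marker Pecam1 was 0.25 higher, and Klf1 (7.66 and 7.67) did not pass. Of the dendritic markers 3 were higher and 1, Itgax, was lower. The part of these cells in the cathepsin differences was not tested.

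**Figure D4:**
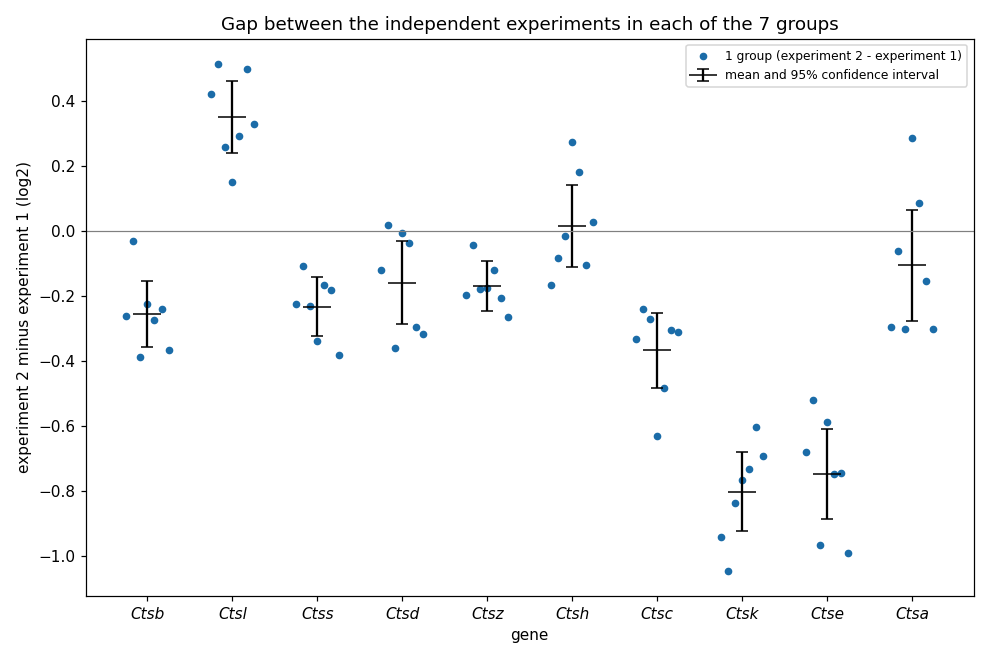
Experiment 2 minus experiment 1 (log2) for each cathepsin gene. Points are the 7 treatment groups, crosses the mean with its 95% confidence interval. Ctsl lies above 0 in every group, Ctsk and Ctse between -1.04 and -0.52, and Ctsh and Ctsa on both sides of 0.

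The 10 genes had 22 single-gene probe sets, 21 of them bright enough to test, and most repeated the difference between experiments. All 5 Ctsb probe sets were lower in experiment 2, by 0.25 to 0.44 log2, all 3 Ctsz probe sets by 0.14 to 0.17, and all 3 Ctsc probe sets, with dimmer ones at -0.72 and -0.54 against -0.37. Ctse was the exception. Its second probe set (mean 8.73 log2) lay 0.15 ± 0.09 higher in experiment 2 (limma adjusted p = 0.205), against -0.75 for the first, and their values were uncorrelated over the 14 arrays (r = -0.03). With CpG, TNF, CpG after CLIK148 and TNF after CA074Me the second probe set gave -0.18, -0.27, -0.23 and -0.16, each below 0 and none called. With CpG the kept Ctsb probe set lay at 0.05 and the other 4 between -0.16 and -0.04, none of them called. A second Ctsa probe set, at 7.96 near the overall median, also did not follow the first (r = -0.11).

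**Figure D5:**
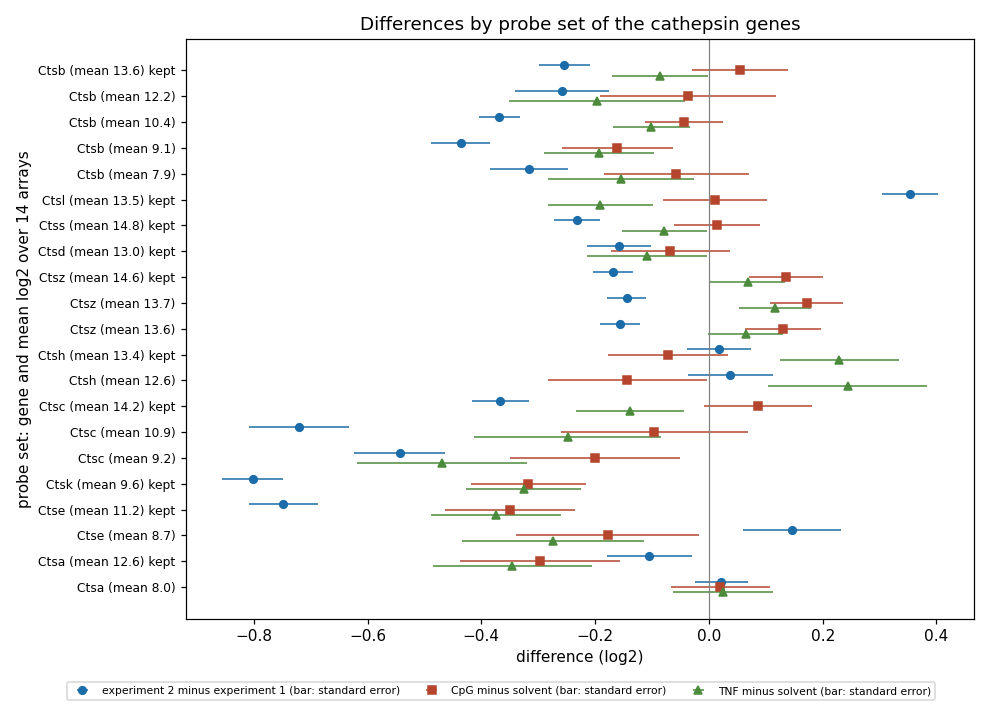
Differences in log2 expression for each of the 21 bright probe sets of the cathepsin genes, with standard errors. Circles are experiment 2 minus experiment 1, squares CpG minus solvent and triangles TNF minus solvent. The circles of the Ctsb and Ctsz probe sets all lie left of 0, the Ctsb squares lie on both sides of it, and the circles of the Ctse probe sets lie on opposite sides of 0.

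Once each experiment's mean was subtracted, the members followed different courses over the 14 arrays. The highest correlation among the 45 pairs was that of Ctse and Ctsa (r = 0.83), and the lowest was that of Ctsh and Ctsc (r = -0.89). Without that subtraction Ctsk and Ctse had r = 0.92 and Ctsl and Ctsk r = -0.80, which holds the gap between experiments. The genes nearest to each member after subtraction were Rnmt (r = 0.94), Psmb7 and Trpc4ap for Ctsb, Tmem192 (0.90), St8sia4 and Mrpl46 for Ctsl, and Ccl6 (0.87), Itm2b and Ptp4a2 for Ctss. For Ctsz they were H2-D1 (0.95), Gabarap and Pfn1, for Ctsh Slc44a1 (0.97), Igsf3 and Usp27x, for Ctsc Stx7 (0.97), Ppp1r15b and Sdcbp, and for Ctsk Cdc16 (0.93), Aif1 and Ccp110. For Ctsd they were Ipo13 (0.96), Slc10a3 and Capn1, for Ctse Wrnip1 (0.97), Tnfsf14 and Hipk1, and for Ctsa Aaas (0.98), Timm50 and Vwf. These genes are the nearest of all those tested, over arrays that share treatments, and the 100 nearest genes of each member held 0 other members. With 10 members among 12172 genes tested, genes drawn at random would mostly give 0 as well, so that count is no result about the members.

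The other genes of the pathway gave a mixed picture. Of 13 other cathepsin genes on the array, 4 were bright enough to test and 0 passed in any of the 12 comparisons of treatments, and Ctsg, a serine protease of neutrophil granules, was 0.23 log2 higher in experiment 2 (limma adjusted p = 0.0351). Of 5 endogenous inhibitors 0 passed with a treatment, and Cstb, which encodes cystatin B, was 0.22 lower in experiment 2 (0.00257). Over all genes the share that passed ran from 0% to 19.9% in the 12 treatment comparisons and was 44.6% between experiments. Counts from 4 or 5 genes are not shown to differ from those shares. Of 11 genes of activation, sorting and transcription, 1 rose and 2 fell with CpG, where 19.9% of all genes passed. M6pr, the cation-dependent mannose 6-phosphate receptor, rose by 0.33 ± 0.06 log2 (adjusted p = 0.00857), while Igf2r, the other such receptor, fell by 0.37 ± 0.09 (0.0248) and Nagpa, which uncovers the sorting tag, by 0.35 ± 0.10 (0.0379). Counts for this list were 0 with TNF, 1 higher and 1 lower with CpG after CLIK148, and 2 higher and 1 lower with TNF after CA074Me, against 17.1% of all genes with CpG after CLIK148 and 11.1% with TNF after CA074Me. With TNF after CA074Me M6pr rose by 0.26, Mitf, a transcription factor of the E-box family, by 0.51, and Nagpa fell by 0.40. Mitf was 1.31 log2 lower in experiment 2.

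Of 9 partners and substrates in endosomes, 1 passed with CpG, where 19.9% of all genes did. That gene, H2-DMa, loads peptide on MHC class II and fell by 1.03 ± 0.17 log2 (limma adjusted p = 0.00633). It also fell by 0.99 with CpG after CLIK148 and by 0.72 with TNF after CA074Me, where 17.1% and 11.1% of all genes passed. With TNF in solvent 0 of the 9 passed, against 3.11% of all genes. Of 13 other lysosomal genes, 2 passed with CpG, where 19.9% of all genes did, and both fell, the beta-glucuronidase gene Gusb by 0.72 ± 0.14 (adjusted p = 0.0120) and the acid ceramidase gene Asah1 by 0.48 ± 0.11 (0.0188). With CpG after CLIK148 3 of the 13 fell, Gusb by 0.75, Asah1 by 0.44 and the cholesterol transporter gene Npc1 by 0.43, where 17.1% of all genes passed. With TNF after CA074Me 2 fell, Gusb by 0.73 and Npc1 by 0.46, where 11.1% of all genes passed, and with TNF in solvent 0 did. These shares of the lists are small counts and are not shown to differ from those of all genes. Without the block 0 of the sorting genes passed, while 1 of the endosomal and 1 of the lysosomal genes did with CpG in solvent, and 1 of the lysosomal genes with TNF after CA074Me.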

How the data were processed

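RNA of 14 cultures, 7 treatment groups in 2 independent experiments, was measured on Affymetrix mouse genome arrays from 100 ng of RNA. The authors deposited log2 expression values that, per the submitters' processing notes, came from RMA in R 3.0.1. RMA subtracts background, makes the distributions of all arrays alike by quantile normalisation and combines the probes of a probe set. Raw intensities were not used here, so no other background correction was tried.

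The array's annotation gave 34945 of 45101 probe sets 1 gene, 932 several and 9160 none, beside 64 controls; 34741 matched RefSeq by gene identifier. Of 18193 genes, 12172 exceeded the overall median on 2 or more arrays and entered limma 3.58.1 in R 4.3.3, with 7 groups, a block for the experiment and 6 residual degrees of freedom, 2-sided, with Benjamini-Hochberg adjustment over those genes at 0.05. Replicate numbers were read as experiments: the design text names 2 independent runs, and replicate differences correlated at r from 0.455 to 0.935 over the 21 pairs of groups. Each array was taken as 1 culture. With 2 arrays a group, their number limits the precision. All groups shared 1 estimate of the spread, and only 0.370% to 3.04% of genes had an unadjusted p under 0.05 in the inhibitor comparisons and interactions, so a count of 0 there does not show absence of an effect.

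Genes named are the 10 members, the 3 genes nearest to each by correlation, and up to 3 called genes of each list with the largest change. Acp5, Itgb3, Calcr and Ocstamp complete the osteoclast list. Members and lists were chosen with earlier results of these data known. Alternatives were no block, no filter, averaged probe sets, cyclic loess, reference-gene scaling, array weights, only the groups compared, and each array left out. The limma test was checked on data simulated for CLIK148 against solvent, with independent noise around the fitted model. That check cannot speak to the choice of the block. The treatment differences of the members were smaller than any that was simulated.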

Additional observations from a re-analysis of the deposited data

How the results depend on the processing

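The contrasts of all stimulated with all unstimulated groups and of TNF with CpG groups were chosen after seeing the data. Without the replicate block, 0 members passed in every comparison, including TNF after CA074Me (1 with the block), stimulated against unstimulated (4) and TNF against CpG groups (1), so every one of these calls was lost. TNF after CA074Me gave 0 with averaged probe sets, 2 with array weights and 2 with only the groups compared, where Ctsh joined Ctse. TNF in solvent gave 3 with array weights, stimulated against unstimulated 2 with cyclic loess, and TNF against CpG groups 0 with array weights. Leaving out 1 array in turn gave 0 to 2 members for CpG in solvent, 0 to 1 for TNF after CA074Me, 0 to 2 for CpG against TNF in solvent, 2 to 4 for stimulated against unstimulated, 0 to 2 for TNF against CpG groups, and 0 in the other 9 comparisons. Counts of the other alternatives kept within 1.5 times. Over all genes the block moved CpG from 234 to 2420 calls, TNF from 14 to 379, CpG after CLIK148 from 99 to 2077, TNF after CA074Me from 159 to 1355 and CpG against TNF from 1 to 53. No called member changed sign under any alternative run. Cyclic loess moved the median of an array's genes by -0.02 to 0.05 log2 and reference-gene scaling by -0.06 to 0.13. Ctss, Ctsz and Ctsc lay near the array maxima, and whether that limits their differences was not tested.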
